A study of Danio rerio with 2 samples.

Results

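The genes described here encode the proteins of the cytosolic ribosome in zebrafish embryos at 22 to 24 hours post-fertilization (hpf). They were found by description: a gene was taken when a transcript of it was annotated as a 40S or 60S ribosomal protein, or as ribosomal protein L, S or P with a number, and mitochondrial ribosomal proteins and kinases were left out. The rule took 81 of the 22017 genes with a read in either library. By their descriptions 36 of the 81 encode proteins of the small subunit, 42 proteins of the large subunit and 2 proteins of the stalk. The remaining member, rimkla, is described as a ribosomal protein S6 modification protein and is not itself a ribosomal protein. It was kept in the counts because the rule takes it, and rpl7l1 is a ribosomal protein-like gene. The 80 genes cover 71 differently numbered proteins and lie on all 25 numbered chromosomes.

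The samples were embryos of the line Tg(fli1a:EGFP)y1, in which the fli1a promoter drives EGFP in endothelial cells (fli1a is also active in some blood and pharyngeal arch cells), dissociated and sorted by fluorescence. One library was made from the GFP+ cells, labelled endothelial, and 1 from the GFP- cells, labelled non-endothelial. Both came from the same line and stage, neither had a further treatment, and the number of embryos and of sorted cells was not given in the sources used here. The comparison asks which transcripts are at a higher or lower level in the fli1a:EGFP cells than in the rest of the embryo. No replicate stands behind either library, so no p-value is given and every interval (95%, exact) covers counting error only. Reads from PCR-amplified libraries are not independent molecules, and the true error is larger than these intervals.

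The 2 libraries held 4441335 (GFP+) and 4105672 (GFP-) uniquely mapped reads. Of 9 vascular marker symbols looked for, 4 were matched to a gene with at least 10 reads. The rest had fewer reads or were not matched by symbol, and nothing is said of their level. The 4 matched genes were all more than 2-fold higher in the GFP+ library. In sum they had 5156 against 179 reads (1161 against 43.6 reads per 1000000, RPM), among them kdrl with 2640 against 71 reads. All 8 erythroid marker genes matched were also more than 2-fold higher there, at 14100 against 130.3 RPM in sum. Several of them share the symbol hbae1.1, and hbbe1.1 and hbbe1.2 were not matched by symbol. All hemoglobin genes together took 6.64% of the GFP+ and 0.0559% of the GFP- reads. Of the 4 myeloid marker genes 3 were more than 2-fold higher in GFP+, with lcp1 standing for more than 1 gene and spi1b not matched. The muscle (4 of 4), epidermis (3 of 3) and neural (4 of 5) markers were more than 2-fold lower. So were hand2 (57 reads in GFP+ and 118 in GFP-), sox10 and foxd3, looked for as pharyngeal arch and neural crest markers. dlx2a of that list was not matched, and arch cells as a whole were not measured. The paper reports genes of pharyngeal arch cells as highly expressed in its GFP+ cells. The GFP+ library thus held erythroid and myeloid transcripts beside vascular ones. slc4a1a, a red cell membrane protein, had no read in GFP- (46 in GFP+), and foxd3, a neural crest factor, none in GFP+ (14 in GFP-). In bulk samples such as these, fewer cells of a type and less RNA per cell cannot be told apart.

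The ribosome translates mRNA into protein. Its small subunit binds the mRNA and decodes it, its large subunit forms the peptide bonds, and a flexible stalk of acidic P proteins on the large subunit recruits the elongation factors. Most ribosomal proteins are present in a single copy per ribosome, their mRNAs are among the most abundant of a growing cell, and in vertebrates they carry a 5′ terminal oligopyrimidine (TOP) tract through which their translation is adjusted together.

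Ribosomal protein genes were read at close to the same level in both sorted populations. The 81 genes took 322282 reads in the GFP+ library, 7.26% of all reads (7.23 to 7.28%), and 316719 reads in the GFP- library, 7.71% (7.69 to 7.74%), which makes the pooled level in GFP+ 0.941 of that in GFP-. The order turned when hemoglobin reads were left out of both totals. The share was then 7.77% (7.75 to 7.80%) in GFP+ and 7.72% (7.69 to 7.74%) in GFP-, and with the reads of the mitochondrial genome left out as well it was 8.54% against 8.50%. Whether these genes are scored as slightly lower or slightly higher in GFP+ thus depends on the total used, and leaving out hemoglobin adds 0.0983 to every log2 ratio given here. In summed RPKM (RPM divided by transcript length in kilobases), which gives short transcripts more weight, the share was larger, 15.2% in GFP+ and 17.8% in GFP-. The most-read transcripts of the members were short, with a median of 702 bases against 1810 bases for all genes.

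**Figure D1:**
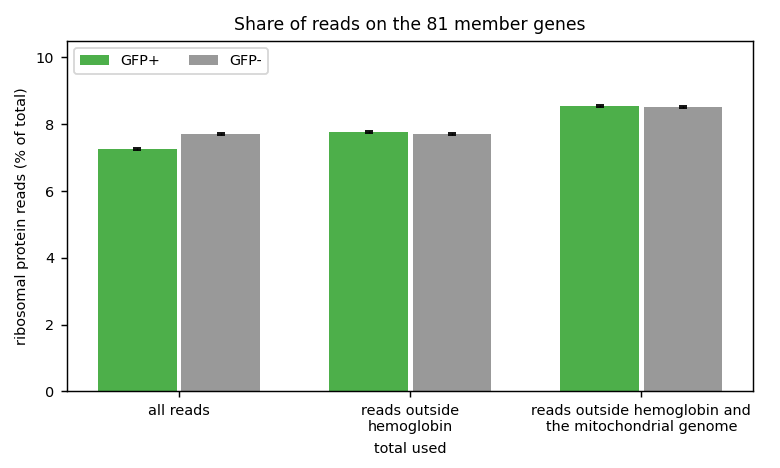
Share of reads on the 81 member genes, in percent, in the GFP+ (green) and GFP- (grey) libraries for 3 choices of the total; error bars are exact 95% intervals for counting error. The GFP+ bar is the lower one for all reads (7.26% against 7.71%) and the higher one once hemoglobin reads are left out (7.77% against 7.72%).

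All 81 members had reads in both libraries. Over both libraries together 79 had at least 10 reads, 69 at least 100 and 53 at least 1000, and 26 (GFP+) and 28 (GFP-) of the 100 most-read genes were members. The 10 most-read members held 46.6% of the ribosomal protein reads in GFP+ and 45.2% in GFP-. rpl4, whose protein lines the narrowest part of the peptide exit tunnel, had the most, with 20906 reads in GFP+ and 20472 in GFP- (4707 and 4986 RPM). rpsa, the small subunit protein also known as the laminin receptor, followed with 19699 and 18662 reads (4435 and 4545 RPM). rps6, the small subunit protein phosphorylated by the S6 kinases, had 19050 and 18147 reads (4289 and 4420 RPM). Each of these 3 lay marginally lower in GFP+, by a log2 ratio between -0.08 and -0.04. rpl21, a large subunit protein, had 18161 and 16439 reads (4089 and 4004 RPM), a log2 ratio of 0.03 (-0.00 to 0.06).

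**Figure D2:**
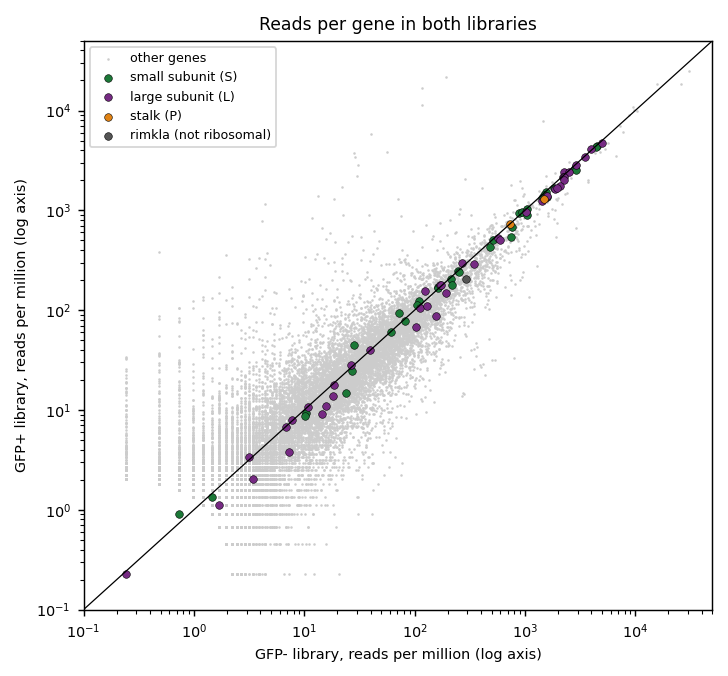
Level of each gene in RPM in the GFP- library (x axis) and the GFP+ library (y axis), both on log axes; the line marks equal levels. The 81 members (coloured by subunit) lie along the line from rpl4 at 4986 and 4707 RPM down to genes under 1 RPM, while other genes (grey) spread to both sides.

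The members differed from each other far less than genes in general. Log2 ratios of GFP+ over GFP- (0.5 reads added to each count, library totals as the scale) had a median of -0.08 over the 79 members with at least 10 reads, with quartiles at -0.22 and 0.01. Over all 15252 genes with that many reads the median was -0.11 and the quartiles were -0.72 and 0.59. At least 1000 reads were reached by 53 members, whose log2 ratios had an SD across genes of 0.183, of which counting error accounts for an SD of 0.0455, and by 1477 genes in all, with an SD of 1.34. Within 0.25 of a log2 ratio of 0 lay 44 of these 53 members (83.02%) and 32.8% of all genes at that depth. Across the 53 members the log2 RPM of both libraries had a Pearson r of 0.994, a description across genes that share the same pair of libraries.

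Few members were past 1.5-fold, and none was past 2-fold in either direction. One of the 79 was more than 1.5-fold higher in GFP+, against 25.0% of all genes with at least 10 reads, and 6 were more than 1.5-fold lower, against 29.6%. The 1 higher gene was rps27l, and the 6 lower ones were rpl7l1, rps24, rpl39, rpl36, rpl10 and rpl5b, of which the last 2 had fewer than 100 reads. Past 2-fold were 16.2% (higher) and 17.6% (lower) of all genes. Which side of 0 a member fell on was less firm. Of the 81 members 22 were above 0 with library totals, 44 with TMM scaling or with hemoglobin reads left out and 46 with median-of-ratios size factors, since those scalings move the median of all genes from -0.11 to between -0.02 and 0.00.

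The spread among members was nevertheless wider than counting error. Of the 69 members with at least 100 reads 28 had an interval that holds the pooled log2 ratio of -0.09, 19 lay wholly above it and 22 wholly below it. Those below include rimkla and rpl7l1. Set against 0, the intervals of 27 members held it, 6 lay wholly above and 36 wholly below. Of all 7877 genes with at least 100 reads 2337 held 0, 2291 lay above and 3249 below. The median was 346 reads for those genes and 4726 for the 69 members, and intervals narrow with depth. These counts over all genes are set against 0 and do not measure the scatter of members around their pooled ratio.

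**Figure D3:**
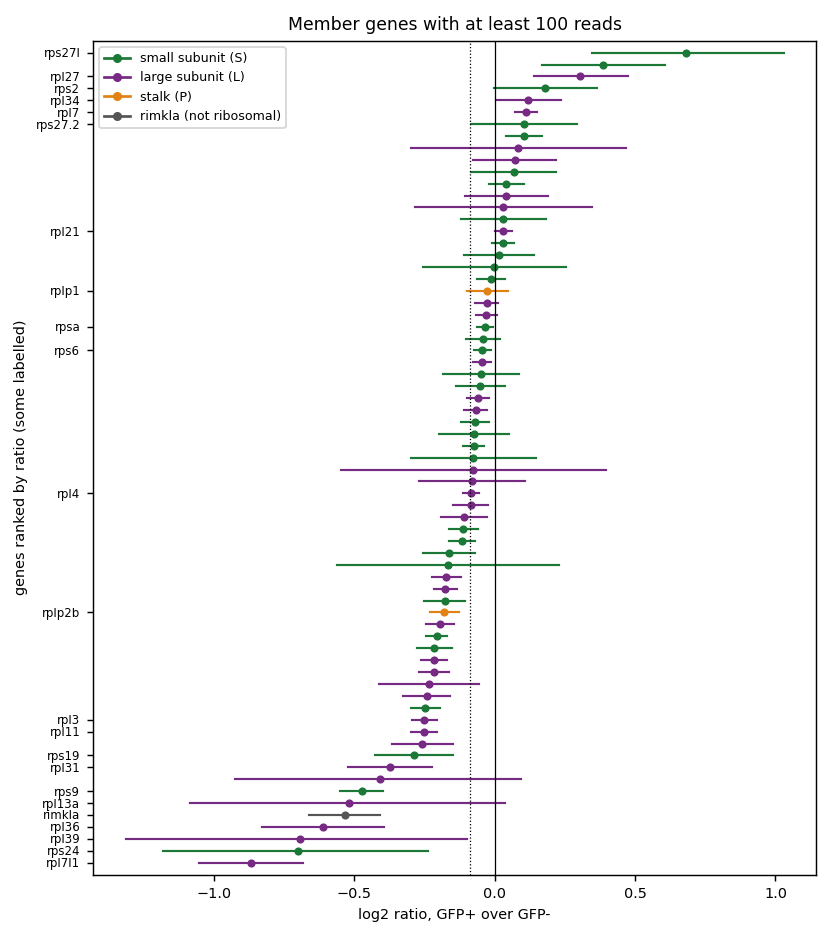
Log2 ratio of GFP+ over GFP- for the 69 members with at least 100 reads, ranked from the highest to the lowest with some genes labelled; points are coloured by subunit, bars are exact 95% intervals for counting error, the solid line marks 0 and the dotted line the pooled ratio of -0.09. rps27l stands apart at the top (0.68) and rpl7l1 at the bottom (-0.87), and most others lie within 0.25 of 0.

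The 36 small subunit genes took 3.14% of the GFP+ and 3.31% of the GFP- reads. Their log2 ratios had a median of -0.07, with 10 above and 25 below 0 among the 35 with at least 10 reads. The intervals of 3 lay wholly above 0, those of 14 wholly below it, and 18 held it. Over all 15252 genes with at least 10 reads 23.7% lay wholly above and 30.2% wholly below 0. Intervals narrow with depth, and the median was 3871 reads for these 35 genes and 107 for all genes. With at least 1000 reads, 1 of 24 small subunit genes lay wholly above 0 and 13 wholly below. Of all 1477 genes at that depth 440 lay wholly above and 796 wholly below. The highest member was rps27l, a paralog of rps27 whose human counterpart is a p53 target gene. It had 200 reads in GFP+ and 115 in GFP- (45.03 and 28.01 RPM), 1.60-fold higher in GFP+ at a log2 ratio of 0.68 (0.35 to 1.03). The gene (ENSDARG00000090186) has 1 listed transcript, on chromosome 25 of Zv9 between 34827002 and 34835479, and reads covered 99.3% of it in GFP+ and 97.7% in GFP-. rps2, which lies near the mRNA entry site, had 548 and 447 reads, a log2 ratio of 0.18 (-0.00 to 0.36). The latter rests on a small part of the transcript, since reads covered 12.3% and 13.5% of it in GFP+ and GFP-.

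At the lower end of the small subunit, rps24 had 65 reads in GFP+ and 98 in GFP-, a log2 ratio of -0.70 (-1.18 to -0.24). This gene encodes a protein needed for pre-rRNA processing in human cells, and its reads are split over 5 listed transcripts. Reads covered 39.4% (GFP+) and 43.6% (GFP-) of the most-read one. rps9, a protein beside the mRNA entry channel, was the lowest small subunit gene with at least 1000 reads, at 2376 against 3050 reads (535.0 and 742.9 RPM), a log2 ratio of -0.47 (-0.55 to -0.40). Its level in GFP- was thus 1.39-fold that in GFP+, on counts large enough for a narrow interval. Reads covered 44.2% of the most-read rps9 transcript in both libraries.

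The 42 large subunit genes without the stalk had a median log2 ratio of -0.09, with 11 above and 30 below 0 among the 41 with at least 10 reads. The intervals of 3 lay wholly above 0, those of 21 wholly below it, and 17 held it, beside the same 23.7% and 30.2% of all genes. Depth differed here too, with a median of 1500 reads for these 41 genes and 107 for all genes. With at least 1000 reads, 3 of 26 large subunit genes lay wholly above 0 and 18 wholly below, beside 440 and 796 of all 1477 genes. The highest was rpl27 with 686 reads in GFP+ and 513 in GFP- (154.5 and 124.9 RPM), a log2 ratio of 0.31 (0.14 to 0.47), of which the reads covered 16.8% and 15.8% of the transcript. rpl34 followed with 1304 and 1109 reads, a log2 ratio of 0.12 (0.00 to 0.24). It has 4 listed transcripts, and reads covered only 14.9% (GFP+) and 16.3% (GFP-) of the most-read one. rpl7 had 10800 and 9240 reads (2432 and 2250 RPM), a log2 ratio of 0.11 (0.07 to 0.15). These 3 were the only large subunit genes whose interval lay above 0, and the step from rpl7 in GFP- to GFP+ was 1.08-fold.

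The lowest large subunit gene with at least 100 reads was rpl7l1, which had 384 reads in GFP+ and 648 in GFP- (86.5 and 157.8 RPM). Its level in GFP- was 1.82-fold that in GFP+, a log2 ratio of -0.87 (-1.05 to -0.68). The yeast relative of its protein, Rlp7, acts in the assembly of the large subunit and is not part of the mature ribosome. The gene (ENSDARG00000042864) lies on chromosome 20 of Zv9, where its 2 listed transcripts together span 36699691 to 36703841. Reads covered 74.8% of the most-read transcript in GFP+ and 75.2% in GFP-. rpl36 had 299 and 422 reads, a log2 ratio of -0.61 (-0.83 to -0.39), with 30.2% (GFP+) and 36.9% (GFP-) of its most-read transcript covered. On few reads rpl10, which joins the large subunit late in its assembly, was lower still, with 17 in GFP+ and 30 in GFP-, a log2 ratio of -0.91 (-1.88 to -0.03). rpl39, whose protein lines the exit tunnel, had 40 and 60 reads and a log2 ratio of -0.69 (-1.31 to -0.10). rpl13a, in human cells a regulator of inflammatory mRNAs when released from the ribosome, had 49 and 65 reads and a log2 ratio of -0.52 (-1.09 to 0.04). The counts of the last 3 are low, and the interval of rpl13a holds 0. The non-ribosomal member rimkla had 905 and 1211 reads (203.8 and 295.0 RPM), a log2 ratio of -0.53 (-0.66 to -0.41), and so lay among the lowest members without being a part of the ribosome.

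The balance of the subunits was alike in both libraries. Large subunit genes with the stalk (44 genes) had 182003 reads in GFP+ and 179431 in GFP-, and small subunit genes had 139374 and 136077. The ratio of large to small was 1.31 in GFP+ and 1.32 in GFP-, and the first was 0.990 times the second (0.981 to 1.000). In summed RPKM the ratio was 1.41 and 1.42.

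Of the stalk proteins, rplp1 had 3213 reads in GFP+ and 3023 in GFP-, a log2 ratio of -0.03 (-0.10 to 0.05), and rplp2b had 5804 and 6077, a log2 ratio of -0.18 (-0.23 to -0.13). The stalk base protein P0, rplp0, is annotated in words that the rule does not take. It had 11214 and 10525 reads, a log2 ratio of -0.02 (-0.06 to 0.02). None of the 3 was past 1.5-fold, and of the 3 only rplp2b had an interval that does not hold 0. A further P2 gene outside the rule, rplp2, had 696 and 753 reads. Its log2 ratio was -0.23 (-0.38 to -0.08), so its interval lay below 0 as well.

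Besides rplp0 the wording of the annotation left out 6 genes whose symbols or descriptions name a ribosomal protein, found after the values were seen. Among them rps27a, which yields ubiquitin and protein S27a, had 11636 reads in GFP+ and 12433 in GFP-, a log2 ratio of -0.21. Of the others rpl17 had 922 and 816 (0.06), rplp2 had 696 and 753 (-0.23) and rpl9 had 28 and 33 (-0.35). All 7 lay within 1.5-fold, and with them the share of all reads was 8.05% in GFP+ and 8.57% in GFP-.

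Where several genes are named for the same numbered protein, 1 gene held most of the reads in both libraries. The less-read gene differed from it in its ratio for 2 pairs beyond counting error. The first is the L7 family, with the ribosomal protein-like gene rpl7l1 described above. The yeast relative of its protein is not part of the mature ribosome, so this pair may not be copies of the same ribosomal protein. rpl7l1 made up 3.43% of the reads of rpl7 and rpl7l1 together in GFP+ and 6.55% in GFP-, a difference of their log2 ratios (rpl7l1 minus rpl7) of -0.98 (-1.17 to -0.79). The second is the S27 family, where rps27l made up 3.05% of the reads of rps27.1 and rps27l in GFP+ and 1.83% in GFP-, a difference of 0.76 (0.4135 to 1.103). Both differences are ratios within a library and do not depend on the scaling. The third S27 gene, rps27.2, had 500 and 430 reads against 6348 and 6163 of rps27.1, a difference of 0.17 (-0.02 to 0.37).

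For S26, a protein at the mRNA exit site, rps26l carried most of the reads (4274 in GFP+ and 3839 in GFP-) and rps26 345 and 336, a difference of -0.12 (-0.35 to 0.11). The other minor copies were too thinly read for a comparison. rpl22l1, the paralog of rpl22, had 15 and 13 reads against 493 and 536 of rpl22. rpl5b had 9 and 14 reads against 10649 and 10251 of rpl5a, which encodes the protein that carries 5S rRNA into the large subunit. A second gene annotated rpl4 had 1 read in each library. For S8 both copies were thin, with 39 and 42 reads on rps8a and 4 and 3 on rps8b. All of these intervals held 0. Near-identical copies share reads that do not map uniquely, so levels of paralogs are uncertain.

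How many reads a member had went with how its gene was annotated. The 32 members with 1 listed transcript had a median of 12196 reads over both libraries, and the 12 members with 4 or more listed transcripts a median of 125. Between them there was no steady fall, with a median of 1690 for 2 transcripts and 3871 for 3. Over all genes the median was 29 for 1 transcript and 169 for 4 or more. rps8a, with 6 listed transcripts, had 81 reads in all. Among the 68 ribosomal members with at least 100 reads, the most-read transcript was covered to a median of 98.2% (GFP+) and 97.7% (GFP-) in the 27 genes with 1 transcript and 32.2% and 33.6% in the 41 genes with several. In the files only uniquely mapped reads are counted, and whether this sets those differences was not tested. The order of members by reads, and the shares of paralogs in a family, are therefore orders of uniquely mapped reads and not of mRNA level. Per length, levels are given only for genes with 1 transcript. In the 24 such members with at least 1000 reads RPKM had a median of 2926 (GFP+) and 3328 (GFP-), and rpl21 was the highest with 6627 and 6489.

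**Figure D4:**
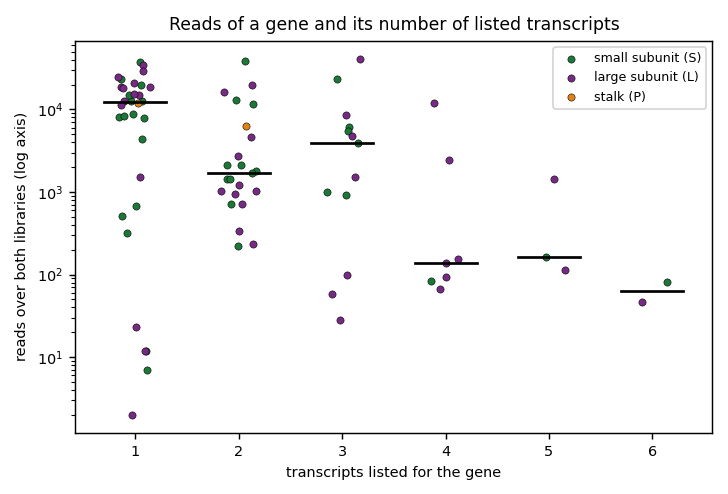
Reads over both libraries (log axis) of each of the 80 ribosomal members against the number of transcripts listed for its gene; points are genes coloured by subunit and black bars are medians. Most genes with 1 transcript lie above 1000 reads, at a median of 12196, while 9 of the 12 genes with 4 or more lie below 200.

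The median log2 ratio was -0.07 over the members with 1 listed transcript, -0.05 with 2, -0.08 with 3 and -0.20 with 4 or more. Only the last group, which was thinly read, thus stood apart. Over all genes with at least 10 reads the median was -0.11 with 1 transcript, -0.11 with 2, -0.18 with 3 and -0.29 with 4 or more. Where the most-read transcript was covered to at least 50% in both libraries (33 members) the median was -0.07, and in the other 35 it was -0.08. The highest member rps27l has 1 listed transcript, and rpl7l1, the lowest with at least 100 reads, has 2.

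Within 7 genes a second transcript had at least 50 reads and could be set against the first. In rpl3, which encodes a protein beside the peptidyl transferase centre, the shorter second transcript (801 bases) had 186 reads in GFP+ and 325 in GFP- while the main one (1382 bases) had 7578 and 8212, a difference of -0.69 (-0.96 to -0.42) on the log2 scale. In rpl35a the second transcript had 550 and 723 reads and the main one 1675 and 1709, a difference of -0.37 (-0.56 to -0.18). In rplp1 it was -0.92 (-1.68 to -0.19) on 26 and 46 reads. In these 3 genes the second transcript was lower in GFP+ relative to the first beyond counting error. In the other comparisons (rpl38, rps12, rps27.2 and 2 in rps9) the interval held 0. The same comparison was not made over all genes, so how usual such differences are is not known, and nothing is said of the members as a group.

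Mutations of ribosomal protein genes cause Diamond-Blackfan anemia in humans, a failure of red cell production, and erythroid transcripts were abundant in the GFP+ library. Taken by protein number, which brings in paralogs such as rps27l that are not themselves the disease gene, 24 members had a median log2 ratio of -0.07, as against -0.08 for all members. Of the 24, 6 were above and 18 below 0. With at least 10 reads 58 of 79 members and 8338 of 15252 genes in all were below 0. The list thus had a share close to that of the members as a whole. Leaving out hemoglobin reads adds 0.0983 to each of these ratios, so the signs depend on the total used. The highest was the paralog rps27l, described above, followed by rpl27 at 0.31, and the lowest was the minor copy rpl5b at -0.72 on 9 and 14 reads. rps19, the gene most often mutated in that disease, had 794 and 896 reads, a log2 ratio of -0.29 (-0.43 to -0.15). Its interval lay below the pooled ratio of -0.09, so rps19 was among the slightly lower members. Reads covered 30.7% (GFP+) and 30.1% (GFP-) of its most-read transcript.

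The genes that build the ribosome lay lower in GFP+ than the ribosomal proteins themselves. Of the 68 ribosome assembly factors measured, 58 had at least 100 reads, and their log2 ratios had a median of -0.40 where the members at that depth had -0.08. Among the 58, 22 were more than 1.5-fold lower and 2 more than 1.5-fold higher, against 27.1% and 20.8% of all 7877 genes at that depth, and 4 and 1 of 69 members. The lowest was mdn1, the ATPase that strips assembly factors from the large subunit precursor. It had 62 reads in GFP+ and 138 in GFP- (14.0 and 33.6 RPM) over 4 listed transcripts, a log2 ratio of -1.26 (-1.72 to -0.83). dkc1, the pseudouridine synthase of ribosomal RNA, had 1879 and 3600 reads (423.1 and 876.8 RPM), a log2 ratio of -1.05 (-1.13 to -0.97). nop56, a core protein of the box C/D ribonucleoproteins that guide methylation, had 589 and 1073 reads over 7 listed transcripts, a log2 ratio of -0.98 (-1.13 to -0.83). fbl, the methyltransferase of the same particles, had 2586 and 3585 reads, a log2 ratio of -0.58 (-0.66 to -0.51). The list was not uniform. urb2, in yeast a factor of early large subunit assembly, had 882 and 303 reads (198.6 and 73.8 RPM), a log2 ratio of 1.43 (1.24 to 1.62), and heatr1, a factor of the small subunit processome, had 243 and 107, a log2 ratio of 1.07 (0.74 to 1.41).

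RNA polymerase I transcribes the ribosomal RNA precursor. Of its 13 measured subunits and factors 6 had at least 100 reads, and the intervals of all 6 lay below 0, where those of 41.2% of all genes at that depth did. Their median log2 ratio was -0.49, and 2 were more than 1.5-fold lower, a share near the 27.1% of all genes. polr1a, the largest subunit, had 52 reads in GFP+ and 82 in GFP-, a log2 ratio of -0.77 (-1.30 to -0.25), and ubtf, the factor that opens the ribosomal DNA, had 1009 and 1174, a log2 ratio of -0.33 (-0.45 to -0.21). With hemoglobin reads left out of the totals the medians over genes with at least 10 reads were -0.30 for the assembly factors and 0.02 for the ribosomal proteins. Cell type markers differed between the libraries as given above, and their part in these differences was not tested.

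The proteins that work with the ribosome went in no single direction. Among 30 translation initiation factors the median log2 ratio was -0.01, with 2 more than 1.5-fold higher and 4 more than 1.5-fold lower, beside 20.8% and 27.1% of all genes. eif5a, which eases peptide bond formation at proline stretches, was the highest with 314 and 156 reads, a log2 ratio of 0.89 (0.61 to 1.18). Those reads are split over 6 listed transcripts. Its paralog eif5a2 had far more reads, 8484 and 7226, and a log2 ratio of 0.12. eif4e2, a cap-binding protein that represses translation, was the lowest with 79 and 166 reads, a log2 ratio of -1.18 (-1.59 to -0.79). The 5 elongation and termination factors with at least 100 reads had a median of -0.29, with none more than 1.5-fold higher and 1 more than 1.5-fold lower. Among them eef2b, which moves the ribosome along the mRNA, was the highest, with 81551 reads in GFP+ and 64503 in GFP-, a log2 ratio of 0.23 (0.21 to 0.24). gspt1, a termination factor, was the lowest with 122 and 217 reads, a log2 ratio of -0.94 (-1.28 to -0.62). Its paralog gspt1l had far more reads, 4740 and 5144, and a log2 ratio of -0.23. eef1a1l1, which delivers aminoacyl-tRNA, had 81949 and 105807 reads, a log2 ratio of -0.48 (-0.50 to -0.47).

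Genes outside the ribosome whose mRNAs are known in vertebrates for a TOP tract were more spread than the ribosomal protein genes. They were taken by symbol, paralogs included, and whether these zebrafish transcripts carry the tract was not examined. Of the 16 with at least 100 reads, which include eef2b and eef1a1l1 from the elongation factors and npm1a from the assembly factors, 4 were more than 1.5-fold higher and 3 more than 1.5-fold lower (20.8% and 27.1% of all genes), around a median log2 ratio of -0.07. impdh2, the enzyme that limits guanine nucleotide synthesis, had 1257 and 604 reads, a log2 ratio of 0.94 (0.80 to 1.09). hnrnpa1a, an RNA-binding splicing factor, had 937 and 1884 reads, a log2 ratio of -1.12 (-1.24 to -1.01).

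The mitochondrial ribosome has its own set of nuclear-encoded proteins. Of the 69 such genes measured 51 had at least 100 reads, with a median log2 ratio of -0.30, and 1 was more than 1.5-fold higher and 9 more than 1.5-fold lower, smaller shares than the 20.8% and 27.1% of all genes at that depth. mrps15 was the highest with 1231 reads in GFP+ and 484 in GFP- (277.2 and 117.9 RPM), a log2 ratio of 1.23 (1.08 to 1.39), and mrpl54 the lowest with 112 and 258 reads, a log2 ratio of -1.31 (-1.65 to -0.99). The quartiles over the 51 genes were -0.49 and -0.05, a range of 0.444 where the cytosolic members at that depth had 0.231. Mitochondrial ribosomal protein genes thus spread more than the cytosolic ones, on lower counts (median 370 against 4726 reads).

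**Figure D5:**
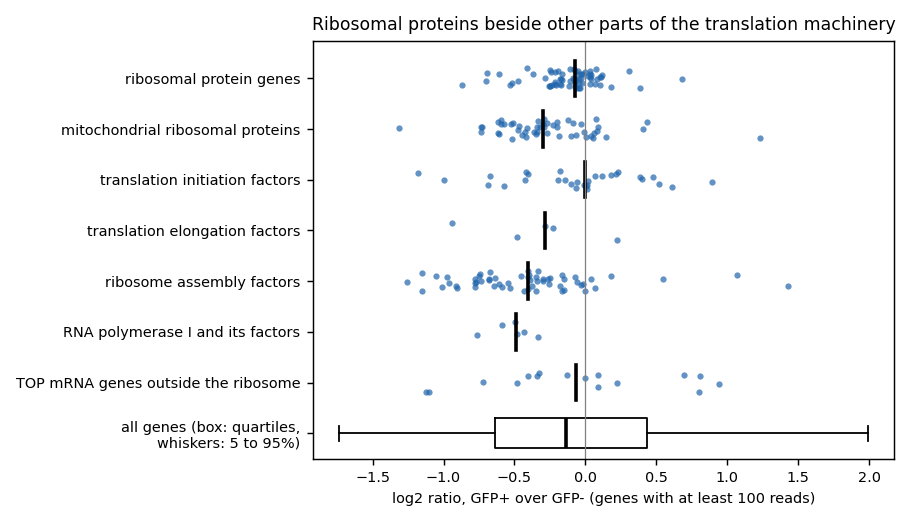
Log2 ratio of GFP+ over GFP- for the genes with at least 100 reads in each list; points are genes, black bars list medians, and the box below shows the quartiles of all 7877 genes with whiskers at the 5th and 95th percentiles. The ribosomal protein genes cluster at a median of -0.08, and the assembly factors (-0.40) and RNA polymerase I genes (-0.49) lie to the left of them.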

How the data were processed

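RNA from fluorescence-sorted GFP+ and GFP- cells, 1 library each, was made into libraries with a kit that does not mark strand. The authors deposited per transcript of Zv9 the count of uniquely mapped reads, RPKM computed by the authors from that count, the transcript length and the library total, and the percent of the transcript covered by reads. The aligner, the counter and the annotation release were not given in the sources used here. Recomputed RPKM differed from the deposited values by rounding error only.

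Counts of all transcripts of a gene were summed. Log2 ratios used library totals and 0.5 added reads, and a gene needed 10 reads or more in the sum of both libraries. Each group being 1 library, no model was fitted, and exact (Clopper-Pearson) or conditional odds-ratio intervals at 95% were computed. A share at 0 would allow 3 reads, 0.676 RPM in GFP+ and 0.731 RPM in GFP-. The scripts were tested on simulated data. Alternatives were TMM (edgeR 4.0.16, R 4.3.3), median-of-ratios size factors, totals without hemoglobin, mitochondrial or member reads, 5 added reads, other minimums, and the most-read transcript. SciPy 1.17.1 and NumPy 2.4.6 under Python 3.11.15 gave the intervals, pandas 2.3.3 read the tables and matplotlib 3.10.9 drew the plots.

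Symbols came from a RefSeq table on GRCz12tu by protein accession for 59 members, from a table of gene IDs for 20 more, in lower case, and 2 had none. The genes of S3, L24 and L37a, without a symbol or with a clone name only, are called by their description. Coordinates are those of the files.

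The members and lists were chosen with earlier results of these data known. Genes named were the 6 highest, 6 lowest and 4 most-read members with at least 100 reads, the stalk and families named for the same protein number. The highest and lowest of each list were named too (of those with at least 100 reads outside the Diamond-Blackfan list). rps9, rps19, rpl10, the genes outside the rule, the genes with several transcripts compared, dkc1, nop56, fbl, heatr1, eef1a1l1, kdrl, slc4a1a, foxd3 and the S6 kinases were chosen after their values were seen. Some genes that this rule takes are not reported here. Of the symbols written, 35 of 48 initiation factors, 10 of 17 elongation and termination factors, 68 of 84 assembly factors and 13 of 19 RNA polymerase I genes were found.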

Additional observations from a re-analysis of the deposited data

How the results depend on the processing

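Each alternative changed 1 choice. The share of reads on the members was 7.26% (GFP+) and 7.71% (GFP-) as reported. It was 7.77% in GFP+ without hemoglobin reads, 8.54% and 8.50% without hemoglobin and mitochondrial genome reads, 7.22% and 7.67% with the most-read transcript of each gene, 6.97% and 7.39% without genes described as like, putative, hypothetical, unnamed or pseudogene, 15.2% and 17.8% of summed RPKM and 6.79% and 7.22% without rpl4. Alternatives chosen after seeing the data gave 8.05% and 8.57% with the genes outside the rule added and 7.19% and 7.64% with only the transcripts whose own description matches. GFP+ had the higher share without hemoglobin reads, with and without the mitochondrial genome, and the lower share in the others. The median log2 ratio of the members lay between -0.08 and 0.04 in all alternatives, above 0 without hemoglobin reads, with TMM and with size factors. The count of members more than 1.5-fold higher (1) became 2 with the most-read transcript, 0 without the genes described as like or putative, 0 at a minimum of 1000 reads and 0 at 2-fold. The count more than 1.5-fold lower (6) became 1 at a minimum of 1000 reads, 1 among genes with 1 listed transcript and 0 at 2-fold, and was 4 to 7 otherwise. Large to small subunit reads were 1.27 and 1.27 without the genes described as like or putative, and 1.41 and 1.42 in RPKM. The median of the elongation factors was -0.85 with 10 reads as the minimum and -0.29 with 100 reads, since 4 of 9 genes have fewer than 100. The median of the TOP genes was -0.33 as against -0.20 with the most-read transcript, -0.22 with TMM, -0.22 with size factors and -0.066 at 100 reads. The ratio of single members changed sign in 22 to 24 of 81 with TMM, size factors or hemoglobin reads left out. The differences of rpl7l1 from rpl7 (-0.99) and of rps27l from rps27.1 (0.76) stood with the most-read transcript. No paired analysis was possible because there is 1 library on each side, and no replicate could be left out. Depth limits the members under 100 reads, and causes were not tested where none is named.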

Other observations

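The S6 kinases, which phosphorylate ribosomal protein S6, and the related ribosomal S6 kinases of the MAP kinase pathway were looked at after the values were seen, and are not members. While rps6 itself differed little (19050 reads in GFP+ and 18147 in GFP-), rps6kb1a had 250 and 40 reads, a log2 ratio of 2.52 (2.04 to 3.05). Its paralog rps6kb1b lay on the other side, with 557 and 746 reads and a log2 ratio of -0.53 (-0.70 to -0.37). Among the others rps6ka3b had 106 and 30 reads (log2 ratio 1.69), rps6ka4 had 70 and 15 (2.07) and rps6ka3 had 332 and 489 (-0.67). The most-read of them, rps6kal, differed little, with 610 and 477 reads (0.24), as did rps6ka1 with 10 and 8 (0.19). rps6ka5 had 23 and 3 reads (2.63), and rps6ka2 had 1 read in GFP+ and none in GFP-. Of all genes with at least 10 reads 25.0% were more than 1.5-fold higher and 29.6% more than 1.5-fold lower.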
